A study of Mus musculus with 18 samples.

Results

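The quantity described here is the difference between the adriamycin response of R1E cells and that of p53-/- cells, both mouse embryonic stem cells. It was formed gene by gene as the change in R1E (adriamycin minus mock) minus the change in p53-/- cells (adriamycin minus untreated), on log2 array intensities. It rests on 14 of the 18 arrays of the study. R1E cells were mock treated or given adriamycin at 0.5 µM for 8 hours, with n = 4 arrays per group, and their labels give neither a strain nor a p53 genotype. The p53-/- cells, of 129X1 x 129S1 background, were left untreated or given the same dose for the same 8 hours, with n = 3 arrays per group. The labels do not say whether the p53-/- cells were a single clone. All cells were kept in Knockout DMEM with fetal bovine serum and leukemia inhibitory factor. The stated aim of the design was to find expression changes after adriamycin that depend on p53. The control was a mock treatment in R1E cells and no treatment in p53-/- cells. Genotype, cell line, set of arrays and processing tool changed together between the lines and cannot be told apart in the difference.

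Adriamycin (doxorubicin) traps topoisomerase II on DNA and leaves double-strand breaks. The kinases that sense breaks stabilise p53, which binds a pair of decamer half-sites near its targets and raises genes of growth arrest, death and its own feedback, Mdm2 among them. In embryonic stem cells p53 is also known to lower Nanog and other genes of the self-renewing state, so that damaged cells leave that state. Cells without p53 still have the break-sensing kinases, the checkpoints of the later cell cycle and p53-independent transcription responses to damage.

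Of the 14 arrays, the third untreated p53-/- array stood apart: its gene levels correlated with those of the other untreated arrays at r = 0.983 to 0.987, where the other untreated pair had r = 0.995, and with the adriamycin arrays at 0.985 to 0.986. Within each R1E group the correlation was 0.997 to 0.999. The median standard error (SE) of a change was 0.0604 in R1E and 0.14 in p53-/- cells, or 0.131 without that array, so the p53-/- set limits the precision of the difference. The main counts and part of the list and gene results are also given without the third untreated array. Results given once use all 14 arrays, and some of them may shift without that array. All 10 embryonic stem cell markers lay above the array median in every group. Of 15 fibroblast markers 6 lay above the median in both R1E groups and 12 in both p53-/- groups, and of 11 markers of early endoderm, mesoderm and neural cells 3 did in R1E and 6 in p53-/- cells. Embryonic stem cells are often grown on fibroblast feeders, and the labels name none. In such bulk RNA, fewer cells of a type and less RNA per cell cannot be told apart. The part of the other cells' RNA in the results below was not tested. The absence of p53 could not be checked on the arrays, because Trp53 was not analysed here, nor were Cdkn1a and Bax.

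The adriamycin responses of the lines differed for a large share of genes. The change was higher in R1E than in p53-/- cells for 2069 of 19935 genes (10.4%) and lower for 2266 (11.4%), at a Benjamini-Hochberg adjusted p below 0.05 with the limma standard errors of both sets combined. At least 2-fold differences made up 671 genes higher in R1E (3.37%) and 350 lower (1.76%). Without the third untreated p53-/- array the counts were 2505 (12.6%) and 2493 (12.5%). With every array centred on its median 42.7% of the called differences were higher in R1E, in place of 47.7%. Whether the arrays of 1 group are separate cultures is not given in the labels, so a p-value covers array-to-array spread that may be technical.

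Nearly all of the called differences came with a response in R1E. Of the 2069 genes with a higher change in R1E, 1995 rose in R1E, 9 fell there and 65 were not called there. Of the 2266 with a lower change, 2071 fell in R1E, none rose and 195 were not called there, with a median p53-/- change of 0.42. In R1E itself 4374 genes rose (21.9%) and 5111 fell (25.6%). In p53-/- cells 3 genes rose (0.015%) and 16 fell (0.0803%), while 2319 had an unadjusted p below 0.05 (11.6%), and without the third untreated array 135 rose (0.677%) and 307 fell (1.54%). Leaving out any other p53-/- array left 0 or 1 gene higher and 0 to 5 lower. With arrays centred on their medians the R1E changes shifted by -0.125 at the median gene and 25.2% of R1E calls were higher, in place of 46.1%. The R1E change is a term of the difference, so the counts in R1E and in the difference are not independent of each other.

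**Figure D1:**
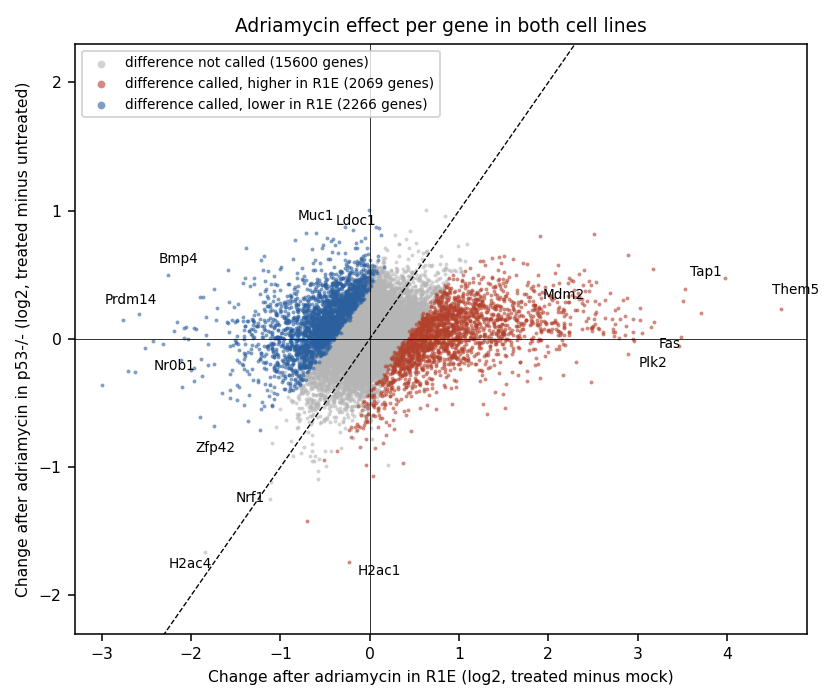
Change after adriamycin in R1E (x axis) against that in p53-/- cells (y axis), both as log2 differences, for 19935 genes; red and blue points have a called difference, and the dashed line marks equal changes. Them5, with the largest difference, lies at 4.61 in R1E and 0.23 in p53-/- cells, and the histone gene H2ac4 and Nrf1 lie near the line.

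The strongest R1E responders had small median changes in p53-/- cells. These genes, and the fallers below, were picked by their R1E change, which is a term of the difference. The shares with a called difference are therefore no separate evidence. The 779 genes that rose at least 2-fold in R1E (3.91% of all) had a median change of 1.43 there and of 0.15 in p53-/- cells. For 772 of them (99.1%) the difference was called, or 776 without the third untreated array, and 0 of the 779 were called in p53-/- cells by limma, or 18 higher and 2 lower without that array. At an unadjusted p below 0.05, 147 of the 779 were higher and 8 lower in p53-/- cells, against 1536 higher and 783 lower of all 19935 genes. Their p53-/- changes were above 0 for 629 genes (80.7%), against 62.6% of all genes, whose median p53-/- change was 0.058. Without the third untreated array the share was 77.5%, again against 62.6%. In 6 of the 779 the p53-/- change was at least 0.5 of the R1E change. The 142 genes that rose at least 4-fold in R1E all had a called difference, with a median p53-/- change of 0.16.

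Among the strongest fallers in R1E, p53-/- changes above 0 made up a smaller share than over all genes. The 292 genes that fell at least 2-fold in R1E (1.46%) had a median change of -1.19 there and of 0.007 in p53-/- cells, with 148 above 0 (50.7%, against 62.6% of all genes) and 144 below. Leaving out the third untreated array put 121 above 0 (41.4%, again against 62.6%). At an unadjusted p below 0.05, 25 of the 292 were higher and 33 lower in p53-/- cells, against 1536 higher and 783 lower over all genes. The difference was called for 283 of them (96.9%), or 280 without the third untreated array. Of the 292 fallers 252 lay above the median gene in untreated p53-/- cells, and these had a median p53-/- change of -0.007. Across genes, the R1E and p53-/- changes correlated at r = 0.213, or 0.234 without the third untreated array. That value describes genes, which are not independent replicates, and the sets share no array.

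The genes with the largest excess in R1E were enzymes, a channel subunit, surface proteins and known p53 targets. Them5, an acyl-CoA thioesterase, read 3.86, 3.74, 3.95 and 3.98 in the mock R1E arrays and 8.48, 8.49, 8.53 and 8.44 after adriamycin. Its p53-/- arrays read 4.05, 3.88 and 4.14 untreated and 4.26, 3.98 and 4.53 treated. The R1E groups were thus far apart and the p53-/- groups overlapped, and the difference was 4.37 ± 0.17 (SE; 95% interval 4.02 to 4.73, adjusted p = 9.17e-11, limma). Alox5, the 5-lipoxygenase of leukotriene synthesis, read 5.06 to 5.21 mock and 9.07 to 9.10 treated in R1E, and 4.79 to 4.95 untreated and 5.22 to 5.43 treated in p53-/- cells. Its p53-/- groups did not overlap, with a change of 0.48 that was not called (adjusted p = 0.203, limma), and the difference was 3.50. Cpz, a carboxypeptidase, differed by 3.52, Ppp1r36 by 3.51, the glutathione peroxidase gene Gpx6 by 3.47 and the sodium channel subunit gene Scn3b by 3.21. Pm20d1, whose enzyme makes N-acyl amino acids, differed by 3.06 and the surface protein gene Cd109 by 3.01. For these 8 genes the p53-/- change ran from -0.12 (Cd109) to 0.48 (Alox5).

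The genes with the largest deficit in R1E were mostly transcription factors and signals of the stem cell and early embryo. Bmp4, a ligand that supports self-renewal, read 8.07, 8.01, 8.11 and 7.95 mock and 5.70, 5.78, 5.87 and 5.73 treated in R1E. Its p53-/- arrays read 7.19, 7.58 and 6.88 untreated and 7.57, 7.86 and 7.70 treated. The gene fell in every treated R1E array while its p53-/- values leaned up, and the difference was -2.76 ± 0.18 (adjusted p = 5.64e-08, limma). Fgf17, a fibroblast growth factor, differed by -2.78 and Apela, a peptide hormone of early development, by -2.44. Emp1, a membrane protein, differed by -2.37 and the small GTPase gene Mras by -2.28. The remaining genes among the 10 largest deficits were Prdm14, Zic2, Zic5, Otx2 and Nr0b1, all members of the pluripotency list.

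Genes listed as p53-activated were then read by role. The lists here and below were chosen with earlier results of these data known. Their shares therefore describe the members and are no independent evidence. Of 67 measured targets in both lists, 46 had a higher change in R1E (68.7%, against 10.4% of all genes), 3 a lower one (4.48%, against 11.4%) and 18 no called difference. Without the third untreated p53-/- array 47 were higher and 3 lower. Their median change was 0.88 in R1E and 0.17 in p53-/- cells, and their median difference was 0.81, against -0.069 over all genes. None of the 67 was called in p53-/- cells by limma, with or without the third untreated array. At an unadjusted p below 0.05 with all arrays, 14 of the 67 were higher there and 0 lower. Over all 19935 genes 1536 were higher and 783 lower at that threshold. Of these targets 53 had a p53-/- change above 0 (79.1%), or 47 (70.1%) without that array, against 62.6% of all genes.

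Among the feedback regulators, Mdm2, the ubiquitin ligase that degrades p53, read 9.17, 9.15, 9.12 and 9.03 mock and 10.98, 10.96, 11.07 and 11.01 treated in R1E. Its p53-/- values were 8.44, 8.64 and 8.68 untreated and 8.54, 8.89 and 8.90 treated. The R1E groups were separate and the p53-/- groups overlapped, and the changes of 1.89 ± 0.05 and 0.19 ± 0.14 gave a difference of 1.70 ± 0.15 (adjusted p = 8.09e-07, limma). Ppm1d, the phosphatase that switches off damage signalling, differed by 1.16 ± 0.17. Ccng1, a cyclin that feeds back on p53, read 11.07, 11.06, 11.09 and 10.97 mock and 11.96, 11.89, 12.01 and 11.87 treated in R1E. The same gene in p53-/- cells read 9.76, 9.89 and 10.05 untreated and 10.08, 10.26 and 9.99 treated, groups that overlap. Its difference of 0.68 ± 0.14 (adjusted p = 0.00264, limma) was among the smaller ones called in the list. Trp53inp1, a cofactor of p53, differed by 0.90 ± 0.14.

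Arrest and metabolism targets spanned a wide range. In the list of arrest, feedback and metabolism genes, 34 of 48 had a higher change in R1E (70.8%, against 10.4% of all genes). A lower change was called for 3 (6.25%, against 11.4%). The medians were 0.95 in R1E and 0.20 in p53-/- cells. Plk2, a polo-like kinase, read 8.39, 8.24, 8.25 and 8.07 mock and 11.23, 11.16, 11.23 and 11.15 treated in R1E. The p53-/- arrays read 7.84, 7.72 and 7.11 untreated and 7.45, 7.78 and 7.39 treated, so the groups overlapped there. The difference was 2.97 ± 0.20 (adjusted p = 5.64e-08, limma). Tap1, a subunit of the antigen peptide transporter, was the largest of the list at 3.14 ± 0.18, with R1E arrays at 5.81 to 6.04 mock and 9.38 to 9.52 treated and p53-/- arrays at 5.22, 5.44 and 5.58 untreated and 5.92, 6.03 and 5.47 treated. Btg2, an antiproliferative gene, differed by 2.00 ± 0.21, the epoxide hydrolase gene Ephx1 by 2.39, the xylulose reductase gene Dcxr by 2.23 and Phlda3, an inhibitor of Akt signalling, by 1.60.

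Repair genes among the targets gave unequal values. Ercc5, an endonuclease of nucleotide excision repair, had changes of 1.86 in R1E and -0.15 in p53-/- cells, a difference of 2.02. Polk, a translesion polymerase, differed by 1.66. For Xpc and Ddb2, which recognise damage in the same repair pathway, the differences of 0.079 (95% interval -0.21 to 0.37) and -0.009 (95% interval -0.41 to 0.39) were not called. Xpc rose in R1E by 0.37 (adjusted p = 0.000122, limma) and its p53-/- change of 0.29 was not called (adjusted p = 0.396). The 3 targets with a lower change in R1E were Ndrg1 (-1.63), the polo-like kinase gene Plk3 (-0.85) and the cyclin gene Ccng2 (-0.62). Sesn2, a stress-induced regulator of growth, differed by 0.64 (adjusted p = 0.0267, limma), a call lost without the third untreated array (0.51, adjusted p = 0.0537), while Sesn1, Sfn and Cd82 gained a call without it.

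Among cell death targets 12 of 19 had a higher change in R1E (63.2%, against 10.4% of all genes). None had a lower one by limma (1 at an unadjusted p below 0.05), against 11.4% of all genes. The medians were 0.78 in R1E and 0.13 in p53-/- cells. Fas, the death receptor, read 4.38, 4.49, 4.47 and 4.10 mock and 7.57, 7.50, 7.66 and 7.43 treated in R1E. Fas in p53-/- cells read 4.84, 4.81 and 4.60 untreated and 4.52, 4.88 and 5.25 treated, and these groups overlapped. Its difference was 3.05 ± 0.19 (adjusted p = 5.74e-09, limma). Trp73, a p53 relative, differed by 2.35, the apoptosome gene Apaf1 by 2.04 and Perp, a membrane protein of p53-induced death, by 1.79. Of the BH3-only genes, Pmaip1 (Noxa) differed by 1.14 ± 0.15, while Bbc3 (Puma) differed by 0.57 ± 0.17 (adjusted p = 0.0264, limma), or 0.43 without the third untreated array (adjusted p = 0.0533). The 7 targets without a called difference had values from -0.39 (Tnfrsf22) to -0.075 (Casp1), among them the BH3-only gene Bid at -0.16 and Triap1 at -0.076.

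**Figure D2:**
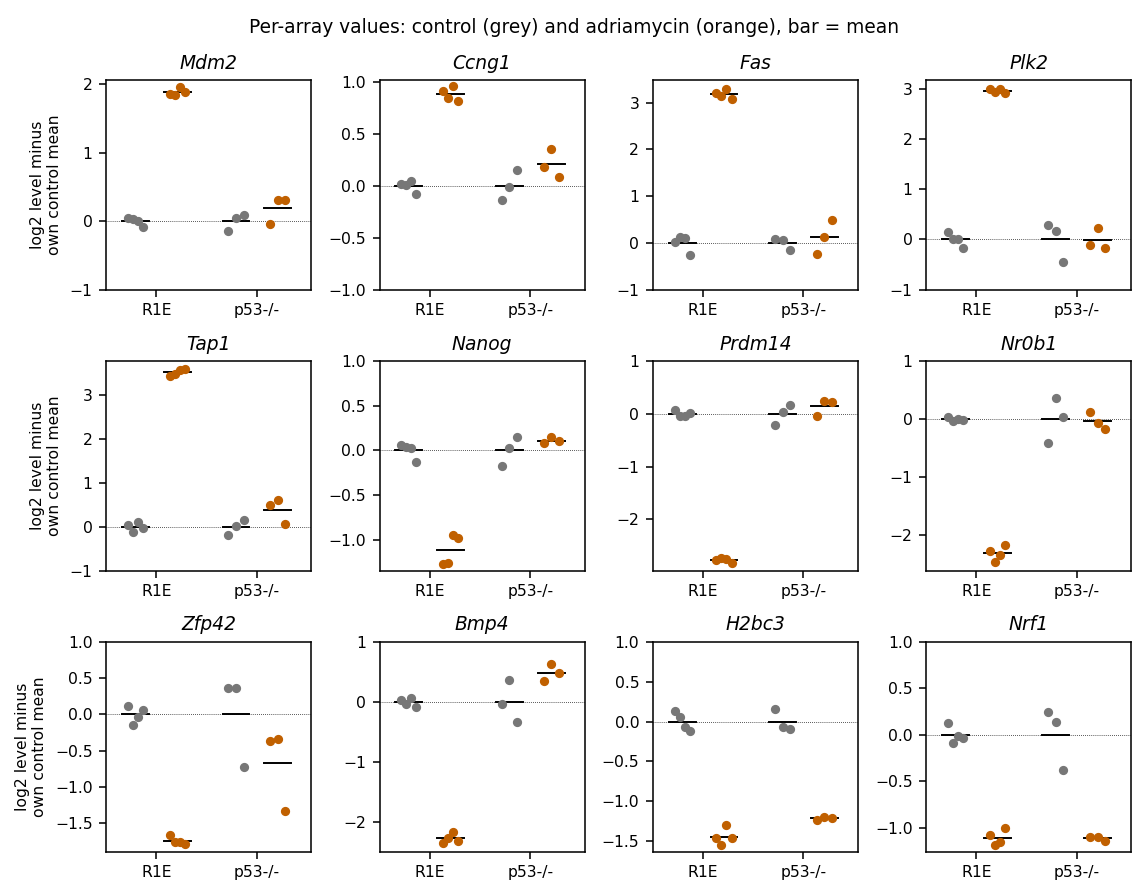
Level of 12 genes on each array minus the mean of the control arrays of the same line (log2), with control arrays in grey, adriamycin arrays in orange and bars at group means (4 arrays per R1E group, 3 per p53-/- group). The first 5 genes rose in R1E by 0.88 (Ccng1) to 3.53 (Tap1), the next 5 fell there by 1.12 (Nanog) to 2.77 (Prdm14), and H2bc3 and Nrf1 were lower after adriamycin in both lines.

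The promoters of genes in this comparison were searched for a pair of p53 half-sites. Each half-site is a decamer with the core C and G kept, at most 1 mismatch per half-site was allowed, and the spacer was 0 to 13 bases. The gene's strand was searched, and the half-site pattern reads the same on the other strand. The windows ran from 250 bases before to 50 after the RefSeq gene start (assembly GRCm38.p6) and were matched for 15561 genes. A pair was found in 2.87% of all these genes, in 4.9% of those with a higher change in R1E (82 of 1672), in 5.49% of those at least 2-fold higher (29 of 528) and in 9.2% of those at least 4-fold higher (8 of 87). Among genes with a lower change in R1E the share was 2.34% (41 of 1751). The classes with a higher change are nested, the mismatch rule was set after the data were seen, and the shares were not tested. Pairs with no mismatch were found in 6 promoters (0.0386%). A match is a description of letters and shows no binding, and known p53 sites often lie outside such short windows. Of 56 p53 targets with a matched promoter 3 had a pair (5.36%, against 2.87% of all matched genes). These promoters are printed with that of Egfr, the receptor gene with the largest excess in the FGF and ERK list. They run 5′ to 3′ on the gene's strand with the half-sites in capitals.
Ccng1, chr11:40755237-40755536, minus strand: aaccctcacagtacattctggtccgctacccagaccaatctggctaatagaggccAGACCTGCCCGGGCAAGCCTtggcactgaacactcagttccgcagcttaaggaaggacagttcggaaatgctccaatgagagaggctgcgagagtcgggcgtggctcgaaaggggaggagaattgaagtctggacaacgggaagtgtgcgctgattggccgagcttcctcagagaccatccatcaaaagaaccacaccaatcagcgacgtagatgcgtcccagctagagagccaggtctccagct
Gtse1, chr15:85859696-85859995, plus strand: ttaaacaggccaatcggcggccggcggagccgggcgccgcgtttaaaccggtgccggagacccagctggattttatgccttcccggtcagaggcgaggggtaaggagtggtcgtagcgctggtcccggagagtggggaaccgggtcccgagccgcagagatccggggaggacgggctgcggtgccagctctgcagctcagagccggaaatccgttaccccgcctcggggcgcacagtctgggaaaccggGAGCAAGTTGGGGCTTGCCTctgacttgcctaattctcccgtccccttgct
Trp73, chr4:154097124-154097423, minus strand: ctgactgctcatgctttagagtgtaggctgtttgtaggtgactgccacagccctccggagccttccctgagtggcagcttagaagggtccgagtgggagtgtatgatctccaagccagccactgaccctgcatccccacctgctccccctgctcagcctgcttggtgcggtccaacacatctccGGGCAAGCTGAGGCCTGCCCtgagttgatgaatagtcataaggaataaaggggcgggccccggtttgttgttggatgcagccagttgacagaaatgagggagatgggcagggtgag
Egfr, chr11:16751953-16752252, plus strand: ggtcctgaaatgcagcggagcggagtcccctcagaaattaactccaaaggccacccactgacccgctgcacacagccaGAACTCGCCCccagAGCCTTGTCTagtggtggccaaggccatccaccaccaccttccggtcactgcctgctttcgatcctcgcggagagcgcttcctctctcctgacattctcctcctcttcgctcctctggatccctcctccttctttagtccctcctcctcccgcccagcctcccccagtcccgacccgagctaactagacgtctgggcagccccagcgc
The half-sites of Ccng1, Gtse1 and Trp73 adjoin with no spacer, and those of Egfr are 4 bases apart. The pair starts 195 bases before the gene start in Ccng1, 66 before it in Trp73, 172 before it in Egfr and 1 before it in Gtse1. Their differences in the adriamycin response were 0.68 (Ccng1), 0.87 (Gtse1, a G2 and S phase protein that holds p53 in check), 2.35 (Trp73) and 2.79 (Egfr).

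Genes of the pluripotency network fell in R1E, with a median change near 0 in p53-/- cells. Of 46 measured factors and markers, 35 had a lower change in R1E (76.1%, against 11.4% of all genes), 1 a higher one and 10 no called difference. Without the third untreated p53-/- array 33 were lower. Their median change was -0.76 in R1E and 0.002 in p53-/- cells, and 44 of the 46 lay above the median gene in untreated p53-/- cells. No member was called in p53-/- cells by limma, and Rif1 and Zfp42 fell there when the third untreated array was left out. At an unadjusted p below 0.05 with all arrays, 1 was higher and 5 were lower in p53-/- cells. Over all 19935 genes 1536 were higher and 783 lower at that threshold.

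Nanog, the factor that p53 is best known to lower, read 11.76, 11.74, 11.72 and 11.57 mock and 10.42, 10.43, 10.75 and 10.72 treated in R1E. The p53-/- values were 10.20, 10.41 and 10.53 untreated and 10.46, 10.53 and 10.48 treated. Every treated R1E array lay below every mock array and the p53-/- groups overlapped, and the difference was -1.22 ± 0.15 (adjusted p = 5.14e-06, limma). Pou5f1, which encodes OCT4, moved far less, at -0.18 in R1E and 0.049 in p53-/- cells, and the difference of -0.23 was not called (95% interval -0.51 to 0.056). Sox2 differed by -0.55 ± 0.14 (adjusted p = 0.00824, limma) with a p53-/- change of -0.002. Klf4 differed by -0.19 (95% interval -0.58 to 0.19), which was not called. Esrrb, at -0.40, sat at the threshold (adjusted p = 0.0499, limma) and was not called without the third untreated array (adjusted p = 0.0641), as happened to Tdgf1 and Dppa2.

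The auxiliary factors carried the largest deficits. Prdm14, which keeps the naive state and represses DNA methylation, read 8.38, 8.28, 8.27 and 8.32 mock and 5.54, 5.58, 5.56 and 5.49 treated in R1E. Its p53-/- values were 5.20, 5.45 and 5.57 untreated and 5.37, 5.65 and 5.63 treated. Its difference of -2.92 ± 0.15 (adjusted p = 4.73e-09, limma) was the largest deficit among named genes, but Prdm14 ranked at percentile 47.3 of gene levels in untreated p53-/- cells and at 79.3 in mock R1E cells. Foxd3 (-1.55) ranked at percentile 17.1 in untreated p53-/- cells and at 65.8 in mock R1E cells. Nr0b1, a repressor that binds OCT4, ranked at percentile 91.5 in untreated p53-/- cells. It read 11.24, 11.18, 11.22 and 11.20 mock and 8.94, 8.74, 8.86 and 9.04 treated in R1E, and 8.48, 9.25 and 8.92 untreated and 9.01, 8.82 and 8.71 treated in p53-/- cells. The R1E groups were separate and the p53-/- groups overlapped, with a difference of -2.28 ± 0.19. Mycn differed by -2.0, Zic2 by -2.64, Otx2 by -2.41 and Zic5 by -2.46, though another probe of Zic5 gave -0.65.

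Zfp42 (Rex1), a marker of the naive state, varied between p53-/- arrays, and the third array of each group read lowest. Its p53-/- arrays read 9.31, 9.31 and 8.21 untreated and 8.58, 8.61 and 7.61 treated, while in R1E it went from 10.19 to 10.44 mock down to 8.54 to 8.66 treated. The difference was -1.07 ± 0.31 (adjusted p = 0.0268, limma), and -0.70 without the third untreated array (adjusted p = 0.0493), when the p53-/- change was -1.05 in place of -0.68. It was -1.4 without the third treated array (adjusted p = 0.00807, limma), and the call was lost without the first (-0.91, adjusted p = 0.119) or the second (-0.90, adjusted p = 0.127). Lefty1, a Nodal antagonist, was the only member of the list with a higher change in R1E, at 0.72 ± 0.17 (adjusted p = 0.00254, limma). Rif1, a telomere and replication-timing factor, had changes of -0.69 in R1E and -0.72 in p53-/- cells, and the difference of 0.036 was not called (95% interval -0.37 to 0.45).

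**Figure D3:**
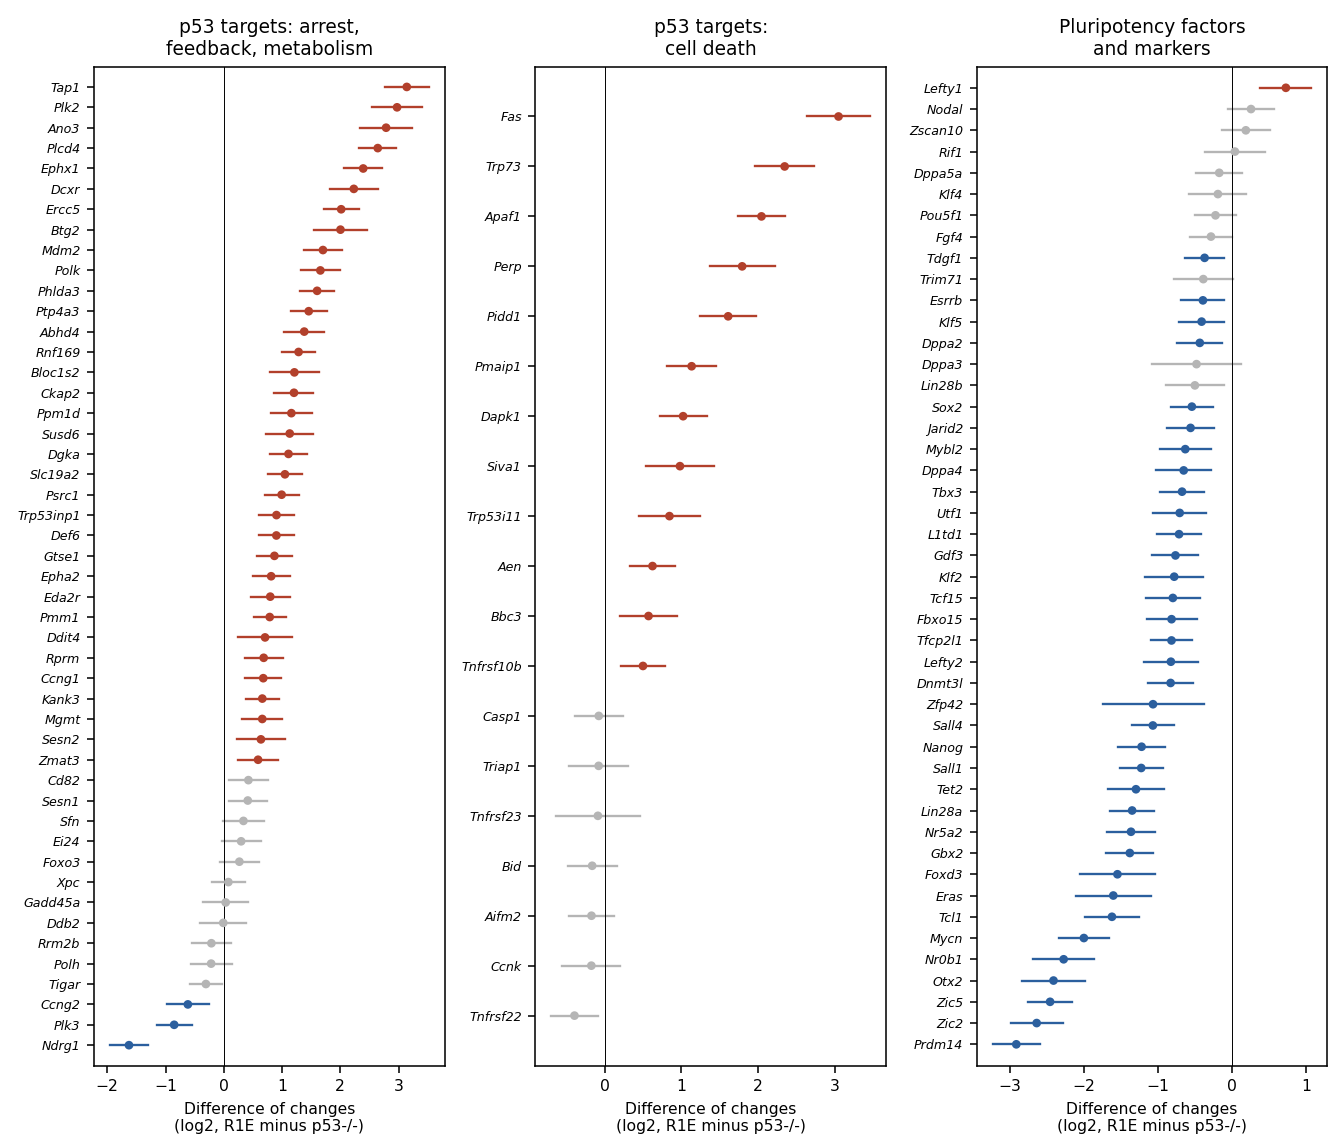
Difference of the adriamycin changes (R1E minus p53-/-, log2) with its 95% interval for every measured member of the p53 target lists (48 and 19 genes) and of the pluripotency list (46 genes); red is called higher in R1E, blue called lower and grey not called. The p53 targets run from -1.63 (Ndrg1) to 3.14 (Tap1) and the pluripotency genes from -2.92 (Prdm14) to 0.72 (Lefty1).

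Signalling pathways that act on the stem cell state also differed. FGF signals through ERK to push cells toward differentiation, and of 28 genes of this pathway 14 had a lower change in R1E (50%, against 11.4% of all genes) and 3 a higher one (10.7%, near the 10.4% of all genes), with medians of -0.36 in R1E and 0.10 in p53-/- cells. Among ligands, Fgf15 differed by -2.06 beside Fgf17, while Fgf4, the main ligand of these cells, differed by -0.29 and was not called. Etv1, an ERK-responsive transcription factor, read 8.03, 7.95, 8.04 and 7.78 mock and 5.83, 5.71, 6.15 and 5.77 treated in R1E, against 7.43, 7.43 and 7.31 untreated and 7.25, 7.65 and 7.30 treated in p53-/- cells. Its groups were separate in R1E and overlapped in p53-/- cells, with a difference of -2.09, or -1.59 by another probe. The feedback inhibitors Spry4 (-1.73), Dusp6 (-1.34) and Spry2 (-1.17) were lower too. Of the receptors, Egfr read 5.67 to 5.82 mock and 8.68 to 8.76 treated in R1E, against 6.04, 6.11 and 5.80 untreated and 5.95, 6.28 and 6.17 treated in p53-/- cells. Egfr differed by 2.79 ± 0.15 (adjusted p = 4.73e-09, limma), Fgfr4 by 2.00 and Fgfr1 by 0.53, while Fgfr3, at -0.83, was lower.

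Of 24 genes of the LIF, STAT3 and BMP response 9 had a lower change in R1E (37.5%, against 11.4% of all genes) and 3 a higher one (12.5%, near the 10.4% of all genes). Beside Bmp4, the STAT3 targets Bcl3 (-1.72), Socs2 (-1.41) and Pim1 (-1.35) were lower, as was the LIF co-receptor gene Il6st (-1.05), while Id2, a BMP target, was higher at 1.31. Wnt ligands had 4 of 19 members with a higher change in R1E (21.1%) and none lower by limma, also at an unadjusted p below 0.05. Wnt3 read 4.95, 5.13, 4.87 and 5.52 mock and 7.06, 7.01, 7.11 and 7.17 treated in R1E, against 5.31, 5.03 and 4.91 untreated and 5.07, 5.33 and 5.20 treated in p53-/- cells. Its R1E groups were separate and its p53-/- groups overlapped, with a difference of 1.85, and Wnt8b differed by 1.94, Wnt4 by 1.05 (0.40 by another probe) and Wnt9a by 0.81. Wnt nuclear factors, feedback genes and receptors had 11 of 30 members lower (36.7%) and 2 higher (6.67%): the secreted inhibitor gene Sfrp1 differed by -2.15, the transcription factor gene Lef1 by -1.56 and the feedback gene Axin2 by -0.95. Leaving out the third untreated p53-/- array gave 13 lower and 2 higher in that list. Notch signalling was split, with 8 of 29 higher (27.6%) and 6 lower (20.7%), or 8 and 9 without the third untreated p53-/- array. Its ligand gene Jag2 (1.71), receptor gene Notch3 (1.62) and feedback gene Nrarp (1.59) were higher, and Notch4 (-1.59) and the modifier gene Lfng (-1.22) lower. Of 27 germ layer and trophectoderm markers 8 were lower (29.6%) and 2 higher (7.41%), led by Eomes, a mesendoderm factor, at -2.20.

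Chromatin genes with called differences were mostly lower in R1E. In the DNA methylation and silencing list 10 of 25 were lower (40%, against 11.4% of all genes) and none higher by limma (1 at an unadjusted p below 0.05), among them Tet2 (-1.30), which oxidises methylcytosine, and the methyltransferase genes Dnmt3a (-0.95) and Dnmt3l (-0.83). In the polycomb and trithorax list 10 of 35 were lower (28.6%) and 2 higher (5.71%, against 10.4% of all genes), led by Phf19 (-1.25) and the methyltransferase gene Kmt2c (-0.86), with Phc2 (0.93) higher. Of 30 SR and hnRNP splicing factors 7 were lower (23.3%) and 1 higher (3.33%), and of 42 ribosome biogenesis genes 8 were lower (19%) and 3 higher (7.14%). Leaving out the third untreated p53-/- array gave 6 lower and 3 higher splicing factors, and 10 lower and 3 higher ribosome biogenesis genes. The respiratory chain list had 1 of 33 members called, Sdhb at -0.57, a share of 3.03% against 21.7% of all genes in either direction.

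Metabolic lists also held many lower changes in R1E. Cholesterol synthesis had 15 of 20 members with a lower change in R1E (75%, against 11.4% of all genes) and none higher by limma, at an unadjusted p below 0.05 either, or 13 without the third untreated array. The median change was -0.39 in R1E and 0.14 in p53-/- cells, where no member was called by limma and 2 had an unadjusted p below 0.05, both higher. Over all 19935 genes 1536 were higher and 783 lower in p53-/- cells at that threshold. Ebp, a sterol isomerase, read 7.48, 7.43, 7.44 and 7.31 mock and 6.30, 6.24, 6.46 and 6.48 treated in R1E, against 7.19, 6.95 and 6.68 untreated and 7.05, 7.27 and 7.04 treated in p53-/- cells. Its R1E groups were separate and its p53-/- groups overlapped, with a difference of -1.23 ± 0.16 (adjusted p = 3.36e-05, limma), and the squalene epoxidase gene Sqle differed by -0.71. Glycolysis and hypoxia genes had 11 of 28 lower (39.3%) and 2 higher (7.14%, against 10.4% of all genes), or 13 and 3 without the third untreated array. Aldoc, an aldolase, differed by -1.55 (changes of -1.0 and 0.55), the histone demethylase gene Kdm3a by -1.09 and the hexokinase gene Hk2 by -0.94, while the phosphofructokinase genes Pfkfb4 (1.57) and Pfkm (0.78) were higher. In the unfolded protein and integrated stress response 13 of 32 were lower (40.6%) and 2 higher (6.25%), with the transcription factor gene Atf4 at -0.92.

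Immediate early, NF-kB and NRF2 genes can respond to stress without p53. Of 35 immediate early and AP-1 genes 11 were lower (31.4%, against 11.4% of all genes) and 7 higher in R1E (20%, against 10.4%). Gadd45b, a stress sensor, read 8.71, 8.71, 8.68 and 8.52 mock and 7.32, 7.12, 7.53 and 7.77 treated in R1E, against 7.69, 7.73 and 7.49 untreated and 8.50, 8.26 and 7.99 treated in p53-/- cells. The groups were separate in both lines and moved in opposite directions, with changes of -1.22 and 0.62, of which the latter was not called (adjusted p = 0.187, limma), and a difference of -1.84 ± 0.19. Fosl1 (1.55) and Jun (1.07) were higher in R1E. Of 24 NF-kB factors and targets 6 were lower (25%) and 3 higher (12.5%, near the share of all genes). Nfkbia, the inhibitor that NF-kB itself induces, read 8.64 to 8.80 mock and 8.47 to 8.58 treated in R1E, against 7.38, 7.69 and 6.91 untreated and 8.31, 8.16 and 8.05 treated in p53-/- cells. The p53-/- groups did not overlap, with a change of 0.85 that was not called (adjusted p = 0.151, limma) and a difference of -1.03. The p53-/- rise was called without the third untreated array (0.64, adjusted p = 0.0394, limma), and the difference was then -0.82. The chemokine gene Cxcl10 went the other way at 2.08. Of 26 NRF2 targets 6 were lower (23.1%) and 2 higher (7.69%). Among these, Gstm1, a glutathione transferase, differed by -1.15, or -0.82 without the third untreated array, and with that array left out its p53-/- rise was called (0.54, adjusted p = 0.043, limma).

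**Figure D4:**
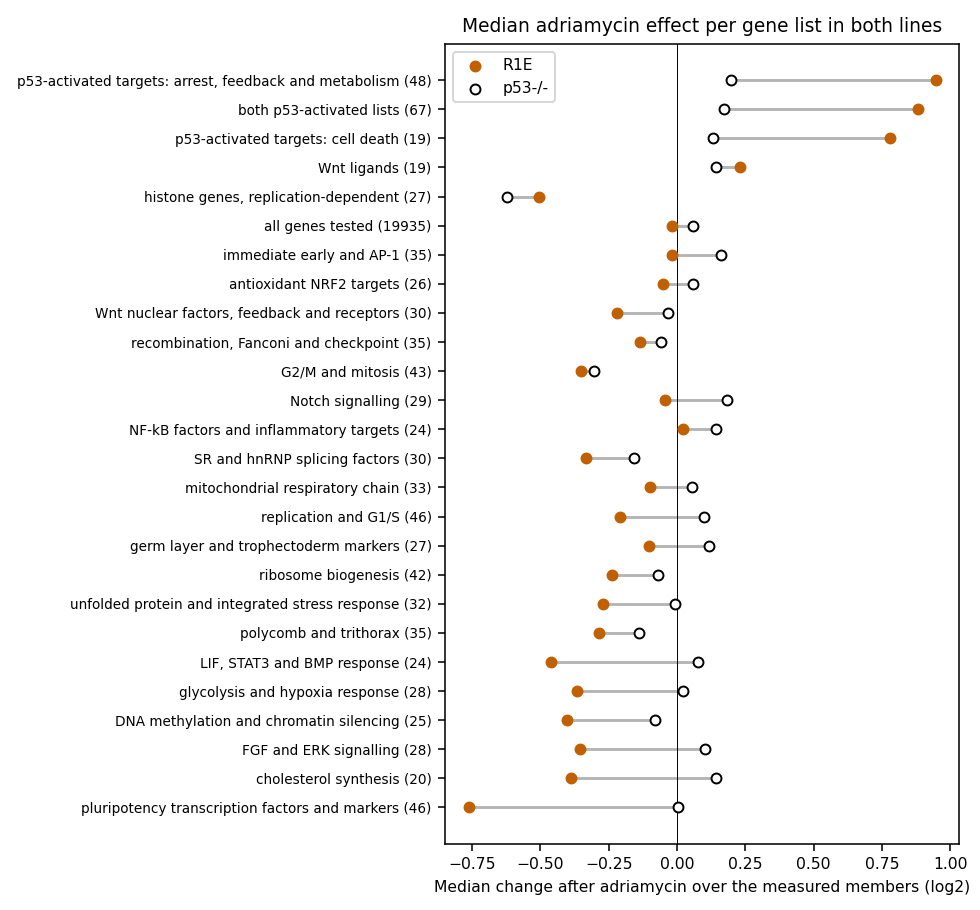
Median change after adriamycin (log2) over the measured members of each gene list in R1E (filled) and p53-/- cells (open), ordered by the median difference, with the number of members in brackets. Both p53 lists stand at 0.95 and 0.78 in R1E against 0.20 and 0.13 in p53-/- cells, the pluripotency list at -0.76 against 0.002, and the histone list at -0.51 against -0.62.

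Replication-dependent histone genes fell in both lines. Their messages are made in S phase, so their level follows DNA replication. Of 27 measured members 25 fell in R1E, against 25.6% of all genes. In p53-/- cells 10 fell, against 0.0803% of all genes, or 18 without the third untreated array, against 1.54%. The medians were -0.51 in R1E and -0.62 in p53-/- cells. The difference was called for 4, with 3 higher in R1E (11.1%, against 10.4% of all genes) and 1 lower, or 7 higher and 1 lower without that array. H2bc3 read 8.30, 8.23, 8.10 and 8.05 mock and 6.70, 6.62, 6.87 and 6.70 treated in R1E, and 8.90, 8.68 and 8.66 untreated and 7.51, 7.55 and 7.54 treated in p53-/- cells. The groups were separate in both lines, with changes of -1.45 and -1.21 and a difference of -0.24 (95% interval -0.53 to 0.062) that was not called. H2ac4 changed by -1.85 and -1.66 and H2bc14 by -1.11 and -1.25. H2ac1 differed most, falling in p53-/- cells from 10.02, 9.71 and 9.54 to 7.96, 7.77 and 8.33, while in R1E it read 7.11 to 7.31 mock and 6.73 to 7.11 treated. Its difference was 1.51 ± 0.19 (adjusted p = 1.38e-05, limma). H2bc4 was the member with a lower change in R1E, at -1.50, or -0.96 without the third untreated array, in which it read 5.97 beside 7.72 and 7.49. Histone genes have near-identical copies, and a probe may read several of them.

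Mitotic genes fell in R1E and leaned the same way in p53-/- cells. Of 43 genes of G2/M and mitosis 33 fell in R1E, against 25.6% of all genes. The medians were -0.35 in R1E and -0.31 in p53-/- cells. No member was called in p53-/- cells by limma. At an unadjusted p below 0.05, 22 of the 43 were lower there and 1 higher, against 783 lower and 1536 higher of all 19935 genes. Without the third untreated array 9 fell there, against 1.54% of all genes. The difference was lower in R1E for 9 members (20.9%, against 11.4% of all genes) and higher for 3 (6.98%), or 6 and 6 without that array, when Cdk1, Kif18a and Cenpf lost their calls and Cenpa, Ttk and Bub1b gained one. Plk1, the mitotic polo-like kinase, read 10.50, 10.57, 10.51 and 10.61 mock and 9.34, 9.38, 9.24 and 9.31 treated in R1E, against 9.64, 9.52 and 9.61 untreated and 8.71, 8.90 and 9.03 treated in p53-/- cells. It was lower in all treated arrays of both lines, with changes of -1.23 and -0.71 (the latter with adjusted p = 0.101, limma) and a difference of -0.52 ± 0.14. Fam83d, a spindle protein, rose in R1E by 1.23, with a difference of 1.30, and the kinesin gene Cenpe differed by 0.80. Replication and G1/S genes had 12 of 46 members lower in R1E (26.1%, against 11.4% of all genes) and 1 higher (2.17%), with Ccne1, encoding cyclin E1, at -1.17. Leaving out the third untreated array gave 14 lower and 2 higher. Homologous recombination and Fanconi genes had 2 of 35 lower (5.71%) and 4 higher (11.4%, near the 10.4% of all genes), or 1 and 6 without the third untreated array, and their median difference turned from -0.12 to 0.032 without the third untreated array.

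**Figure D5:**
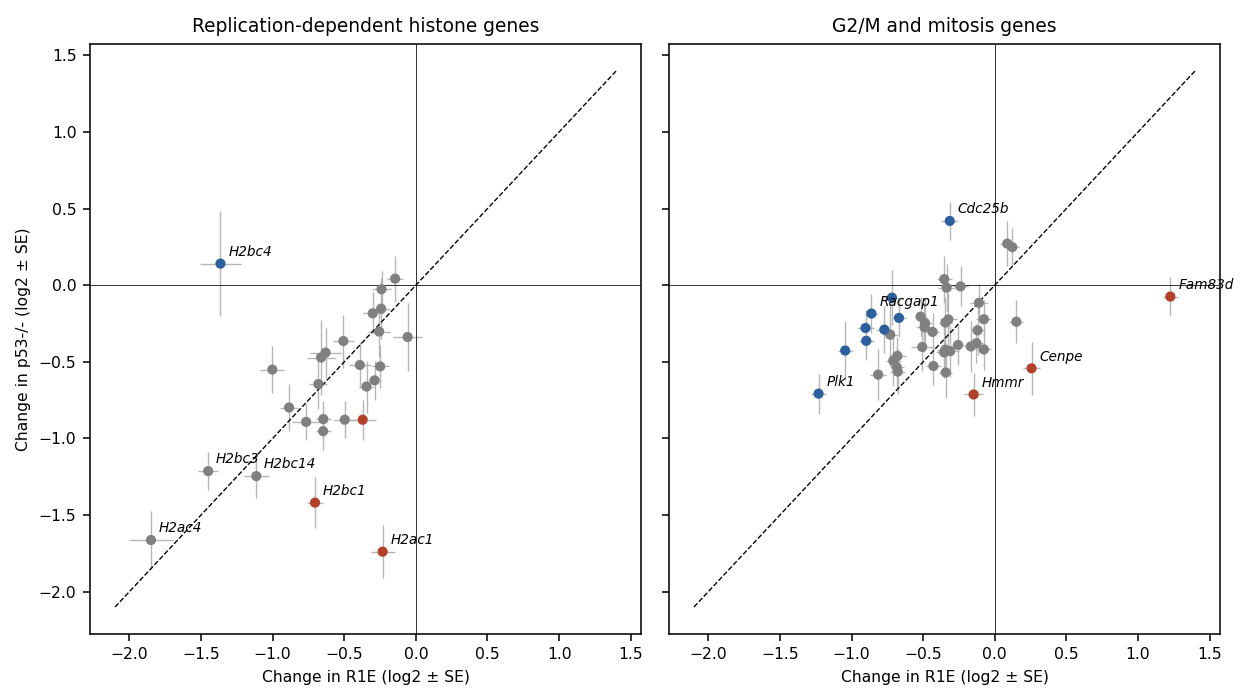
Change in R1E (x axis) against change in p53-/- cells (y axis), log2 with SE bars, for 27 replication-dependent histone genes (left) and 43 G2/M and mitosis genes (right); coloured points have a called difference and the dashed line marks equal changes. Most histone genes lie near the line, with H2ac1 (-0.23 and -1.74) and H2bc4 (-1.36 and 0.14) far from it.

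Few genes were called in both lines, as only 3 rose and 16 fell in p53-/- cells. No difference was called for 2379 of the genes that rose in R1E and 3031 of those that fell. Its 95% interval lay within 1.5-fold either way for 1390 of the risers and 1485 of the fallers. Called in both the same way were 16 genes, of which 5 had a 95% interval of the difference within 1.5-fold either way: Nrf1 and the histone genes H1f5, H2bc14, H2bc3 and H4c4. Nrf1, a transcription factor of mitochondrial genes, read 7.94, 7.72, 7.80 and 7.77 mock and 6.73, 6.62, 6.65 and 6.80 treated in R1E, against 7.40, 7.29 and 6.78 untreated and 6.05, 6.06 and 6.01 treated in p53-/- cells. Its changes of -1.11 and -1.12 gave a difference of 0.012 (95% interval -0.35 to 0.38). Without the third untreated array 55 genes rose and 197 fell in both lines. Procr, the endothelial protein C receptor gene, rose by 0.63 in R1E and by 1.01 in p53-/- cells, and the difference of -0.38 was not called (adjusted p = 0.102, limma). Of the 1071 genes that changed at least 2-fold in R1E, 16 had no called difference, among them Fos, with changes of 1.06 and 0.61, and Hmgb1, with -1.1 and -0.41.

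With all arrays, 2 genes were called in opposite directions in the lines, and without the third untreated p53-/- array 48 were, while 142 were then called in p53-/- cells and not in R1E. Muc1, a membrane mucin, read 5.38, 5.38, 5.30 and 5.34 mock and 4.68, 4.86, 4.67 and 4.77 treated in R1E, against 5.65, 5.80 and 6.02 untreated and 6.63, 6.63 and 6.68 treated in p53-/- cells. Ldoc1, a small nuclear protein, read 4.24 to 4.61 mock and 3.77 to 4.02 treated in R1E, against 4.26, 4.46 and 4.31 untreated and 5.16, 5.13 and 5.11 treated in p53-/- cells. Both, the 2 genes called in opposite directions with all arrays, had separate groups in each line, with differences of -1.43 ± 0.14 and -1.27 ± 0.15. Cdh11, a cadherin of mesenchymal cells, fell in p53-/- cells from 8.46, 8.44 and 8.27 to 7.29, 7.70 and 7.24 and read 3.54 to 3.77 in all R1E arrays, a level at percentile 17 of mock R1E genes against 87.2 in untreated p53-/- cells. Its difference of 0.94 ± 0.16 came from the p53-/- change of -0.98, beside -0.039 in R1E. The fibroblast markers Pdgfra (1.1), Col1a1 (0.89) and Pdgfrb (0.50) also had a higher change in R1E, 3 of the 15 markers (20%, against 10.4% of all genes). The other 12 had no called difference. At an unadjusted p below 0.05 by limma, 6 of the 15 were higher and 0 lower, against 2728 higher and 3585 lower of all 19935 genes. Leaving out the third untreated p53-/- array, 4 of the 15 were called higher, against 12.6% of all genes. Among the 9 genes with a higher change in R1E that fell in R1E were the checkpoint kinase gene Atr (-0.16 in R1E and -0.69 in p53-/- cells) and Leng8 (-0.20 and -0.77). A lower p53-/- change in these 9 genes follows from how they were picked. The Atr call was lost on leaving out any of 5 p53-/- arrays in turn.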

How the data were processed

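Gene expression was measured on single-colour Affymetrix arrays, and the deposited values were log2 intensities that the authors had normalized. Per the submitters' processing notes, the R1E values came from Affymetrix Expression Console 1.1, with the algorithm not given in the sources used here, and p53-/- arrays by RMA in Partek 6.4. The R1E log base was read from the range of values, so intensities were not set against each other between the lines, and a level is given as its rank among the genes of its own line. Of 28853 probes, 21780 name 1 gene, 1605 several and 5430 none. The brightest probe stood for each of 19935 genes.

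Each line was fitted apart with limma 3.58.1 in R 4.3.3 (lmFit, eBayes). The difference took both moderated standard errors, with degrees of freedom combined by Satterthwaite's formula and Benjamini-Hochberg adjustment over 19935 genes. "Called", "rose" and "fell" mean an adjusted p below 0.05. Named genes were the 10 largest differences each way without predicted, receptor-family, histone and small RNA genes, a panel of p53 targets and stem cell factors, up to 3 and 2 called members of each list by direction, and up to 6 each way of the genes called alike, oppositely, or in p53-/- cells. Other list members, Fos and Hmgb1 were named after their values were seen. The comparison, members and lists were chosen with earlier results of these data known, and the half-site mismatch rule after the data were seen. On data simulated for this difference over 19935 genes, with 4000 changed, the fit found 83.7% at 1.5-fold and 99.8% at 2-fold, and 4.6% of calls were false. With 200 changed it found 43.2% and 99%, and 10% of calls were false. The simulated noise was independent between genes and arrays, and no gene changed in p53-/- cells. An array that stands apart was not simulated, so these shares may not hold for the real calls. The number of arrays limits the precision. The R1E arrays after ultraviolet light entered only an alternative.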

Additional observations from a re-analysis of the deposited data

Results flagged for a closer look

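The adriamycin response differed between the lines for 2069 genes with a higher change in R1E and 2266 with a lower one. Muc1 (difference -1.43) and Ldoc1 (-1.27) were called in opposite directions in R1E and p53-/- cells, the 2 such genes with all arrays. Without the third untreated p53-/- array there were 48.

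In groups of 4 arrays, 11 of 286 gene and group combinations had 1 array set apart from the others by Dixon's criterion, and chance alone sets apart about 5% of such groups. In the fourth mock R1E array, Emp1 read 7.55 (nearest other array 7.7), Phlda3 8.14 (7.95), Bbc3 7.33 (7.23), Pfkm 8.58 (8.65) and Ephx1 8.12 (8.26). In the fourth adriamycin R1E array, H2bc4 read 4.06 (4.72) and Wnt4 7.4 (7.58). The remaining such values were Apaf1 at 10.07 (10.12) in the second adriamycin array, E2f2 at 6.1 (6.02) in the first adriamycin array, Egfr at 5.67 (5.81) in the second mock array and Gclm at 9.29 (9.42) in the third mock array. The p53-/- groups of 3 arrays were not examined this way.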

How the results depend on the processing

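Of 143 named genes 139 had a called difference, but most were named because their difference was called and large. The counts for named genes therefore do not carry over to genes at large. Over 24 alternatives no named gene turned its direction, 24 lost their call in at least 1 and 14 did so under an alternative that kept every array. Leaving out the third p53-/- adriamycin array lost the most, 18. The counts of called differences ran from 1648 to 2505 higher and from 1544 to 2493 lower when an array was left out. A 2-fold limit left 671 higher and 350 lower, 27 p53 targets in place of 46 and 17 pluripotency genes in place of 35. In p53-/- cells 0 to 135 genes rose and 0 to 307 fell when an array was left out, and 1 rose with arrays centred on their medians and 1 after quantile normalization. Centring gave 9642 genes lower in R1E in place of 5111. The cause was not tested. The main fit did not pair arrays by replicate number. Same-numbered deviations correlated at -0.089 to 0.051 in R1E and -0.103 to 0.191 in p53-/- cells, which cannot settle whether the arrays were paired. With the replicate number as a block, 2095 differences were higher and 2307 lower, and 0 genes rose and 5 fell in p53-/- cells. The median 95% interval of a difference spans 0.328 either way, which limits what can be called in weak responders.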
